A study of Mus musculus with 23 samples.

Results

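Activator protein 1 (AP-1) is a dimeric transcription factor, and the family described here holds the 9 genes Fos, Fosb, Fosl1, Fosl2, Jun, Junb, Jund, Atf3 and Batf. They were chosen by gene symbol among the 24917 loci of a table of read counts from mouse colonic epithelium, and each symbol stood at 1 locus. Total RNA depleted of ribosomal RNA had been sequenced from male C57BL/6 mice (C57BL/6J in the methods) whose diets began at 6 weeks of age. Control mice (LF) ate a diet with 10% of its energy from fat for 43 weeks, obese mice (HF) ate a diet with 60% fat for 43 weeks, and formerly obese mice (HF-LF) ate the 60% diet for 15 weeks and then the 10% diet for 28 weeks. Batch 1 held 4 LF, 3 HF and 4 HF-LF samples, and batch 2 held 4 LF, 3 HF and 5 HF-LF samples. The batch is a label of the samples, and what differed between the batches is not given in the sources used here. Nothing in the labels says that all 23 samples came from separate mice, so p-values measure only the spread between these samples. The methods state fewer mice per diet than there are samples per diet over both batches, so the batches may share mice, and p-values over both batches would then be too small.

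Proteins of the Fos group have to pair with a Jun protein to bind DNA, whereas Jun proteins can also pair with each other and with proteins of the ATF group. Most of these genes are immediate early genes, whose mRNA is made within minutes of a growth factor, cytokine or stress signal through MAP kinases and is short-lived. Jund mRNA is an exception and is usually made at a steadier level in resting cells. In the intestine AP-1 is known for its part in proliferation of the epithelium and in tumours that follow activation of Wnt signalling.

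The genes lie apart in the mouse genome mm10, and only a few share a chromosome. Fos lies at chr12:85473901-85477270 and Batf at chr12:85686720-85709087, both on the plus strand. Jund lies at chr8:70697739-70700616 on the plus strand and Junb at chr8:84976909-84978748 on the minus strand. The remaining loci are Fosb (chr7:19302696-19310045, minus strand), Fosl1 (chr19:5447698-5455938, plus strand), Fosl2 (chr5:32136472-32157839, plus strand), Jun (chr4:95049036-95052222, minus strand) and Atf3 (chr1:191170297-191183333, minus strand). The locus of Fosl1 overlaps Ccdc85b, which runs on the opposite strand. Whether strand was used in counting is not given in the sources used here, so reads of these genes may not have been told apart. No other member overlapped another locus of the table.

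Promoter sequences were found for 8 of the 9 members in RefSeq, and Fosl1 was not matched. The 130 bases just before the start are shown for 5 members with a match to a searched motif and for Fosl2 and Jund, without a match, whose values are taken up again below. Sequences are from RefSeq on GRCm38.p6, the assembly also named mm10, and are written 5′ to 3′ on the strand of the gene. The Fos stretch ends at 85473889, short of the locus start of 85473901 given above. Distances for Fos are therefore counted from the RefSeq start and not from that locus start. Capitals mark the letters TGACG on either strand, which are one arm of the cyclic AMP response element (CRE), and in Jun the letters TGACATCA.
Fos (chr12:85473760-85473889, plus strand): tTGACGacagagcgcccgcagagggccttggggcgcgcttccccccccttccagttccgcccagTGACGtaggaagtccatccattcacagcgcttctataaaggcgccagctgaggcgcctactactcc
Fosb (chr7:19310046-19310175, minus strand): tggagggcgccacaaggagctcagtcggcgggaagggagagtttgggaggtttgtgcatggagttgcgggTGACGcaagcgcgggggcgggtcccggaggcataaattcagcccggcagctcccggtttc
Jun (chr4:95052223-95052352, minus strand): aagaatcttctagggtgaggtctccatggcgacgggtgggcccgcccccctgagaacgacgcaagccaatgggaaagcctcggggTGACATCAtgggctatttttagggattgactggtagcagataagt
Junb (chr8:84978749-84978878, minus strand): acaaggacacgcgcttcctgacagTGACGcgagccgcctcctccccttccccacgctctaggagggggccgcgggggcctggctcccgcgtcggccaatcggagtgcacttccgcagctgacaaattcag
Atf3 (chr1:191183334-191183463, minus strand): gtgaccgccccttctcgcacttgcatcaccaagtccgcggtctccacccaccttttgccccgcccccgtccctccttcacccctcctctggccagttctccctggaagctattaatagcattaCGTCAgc
Fosl2 (chr5:32136342-32136471, plus strand): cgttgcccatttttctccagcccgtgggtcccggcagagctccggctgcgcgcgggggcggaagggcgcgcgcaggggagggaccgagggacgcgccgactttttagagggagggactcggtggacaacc
Jund (chr8:70697609-70697738, plus strand): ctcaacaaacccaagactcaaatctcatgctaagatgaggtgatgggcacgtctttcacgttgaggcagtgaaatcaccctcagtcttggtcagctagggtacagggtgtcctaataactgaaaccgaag

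The motifs were searched on both strands in the 300 bases from 250 before to 50 after the start. The arm TGACG was found in 5 of the 8 members and in 20.8% of all 32851 promoters. It began 129 and 66 bases before the start of Fos, 60 before Fosb, 106 before Junb, 98 before Batf and, on the opposite strand, 7 before Atf3. The letters TGACATCA began 45 bases before the start of Jun and were found in 3.62% of all promoters. The whole CRE, TGACGTCA, which contains the arm, was found in no member and in 1.79% of promoters. The AP-1 site TGAGTCA was found in no member and in 5.2% of promoters, and the CArG box bound by serum response factor in no member and in 1.63%. A match, or the lack of one, describes only the letters in this window, and sites farther from the start were not searched.

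The samples held 29189922 to 65320947 counted reads each, of which the members together took 0.215% to 0.589%. Values are CPM, counts scaled to equal library sizes with TMM factors. A gene was called when edgeR gave it an adjusted p under 0.05 together with more than a 1.2-fold difference. The tissue was checked against 7 epithelial markers (Epcam, Cdh1, Krt8, Krt19, Krt20, Vil1 and Cdx2), which summed to 11631 to 15869 CPM in every sample. Markers of T cells (at most 28.7 CPM), fibroblasts (2.86 to 51.3 CPM) and smooth muscle (0.383 to 42.9 CPM) were far lower. In bulk RNA, fewer cells that make an mRNA and less of it per cell cannot be told apart.

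In LF mice Fos had the highest level per length of the family. Per kilobase of exon (GENCODE M21), Fos stood at 631 CPM in batch 1 and 827 CPM in batch 2, as the mean of 4 LF samples. Jun followed with 343 and 341 CPM per kilobase, Jund with 321 and 274, Atf3 with 318 and 251, and Junb with 183 and 242. Fosb stood at 134 and 83.1, Fosl2 at 38.4 and 32.9, and Fosl1 at 4.99 and 3.19 CPM per kilobase. Neighbours in this order that overlapped between LF samples were Jun, Jund and Atf3 in batch 1 and Jund, Atf3 and Junb in batch 2. Fosb, Fosl2 and Fosl1 kept their places below the others in each LF sample. These lengths came from GENCODE and not from the loci in which reads were counted. The length used for Junb, 2301 bases, is longer than its locus given above, and that for Jund, 1668 bases, is shorter. The order of the members below Fos may therefore depend on the lengths used. Batf, a partner of Jun proteins in lymphocytes, had 0 to 7 counts per sample and 0 counts in 3 samples, and was not tested. The other 8 members passed the filter on low counts in both batches.

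The comparison of HF with LF mice asks how the family differed after 43 weeks on either diet. Obesity and the diet eaten up to sampling went together in these groups, so they cannot be told apart. All 8 tested members had lower mean levels in HF mice in both batches. Over both batches, with batch as a term, 7 of the 8 fell, with Fosl2 the exception, where 9.42% of all 14385 genes tested were called lower. The median log2 fold change of the 8 was -0.67, beside -0.01 over all genes. Within batch 2 alone, 4 members fell (Fosb, Jun, Junb and Jund) where 4.58% of genes were called lower, and the medians were -0.50 for the members and -0.01 for all genes. Within batch 1, 0 of 8 were called, as were 0 of 14428 genes (0%), although 1516 genes were lower and 1757 higher at an unadjusted p under 0.05. DESeq2 called 7 members and limma voom 8 in batch 1, and edgeR called 7 there without the second HF sample of batch 1 and 4 with the replicate number as a block. DESeq2, limma voom and the block also called more of all genes than the main fit, with totals in the closing section on processing. The total over all genes without that HF sample is not given here, so its count of members stands without a share. Members of this family stand on a gene list that the study made from mice of this age with the group sizes of batch 1, so their direction there may not be independent evidence.

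**Figure D1:**
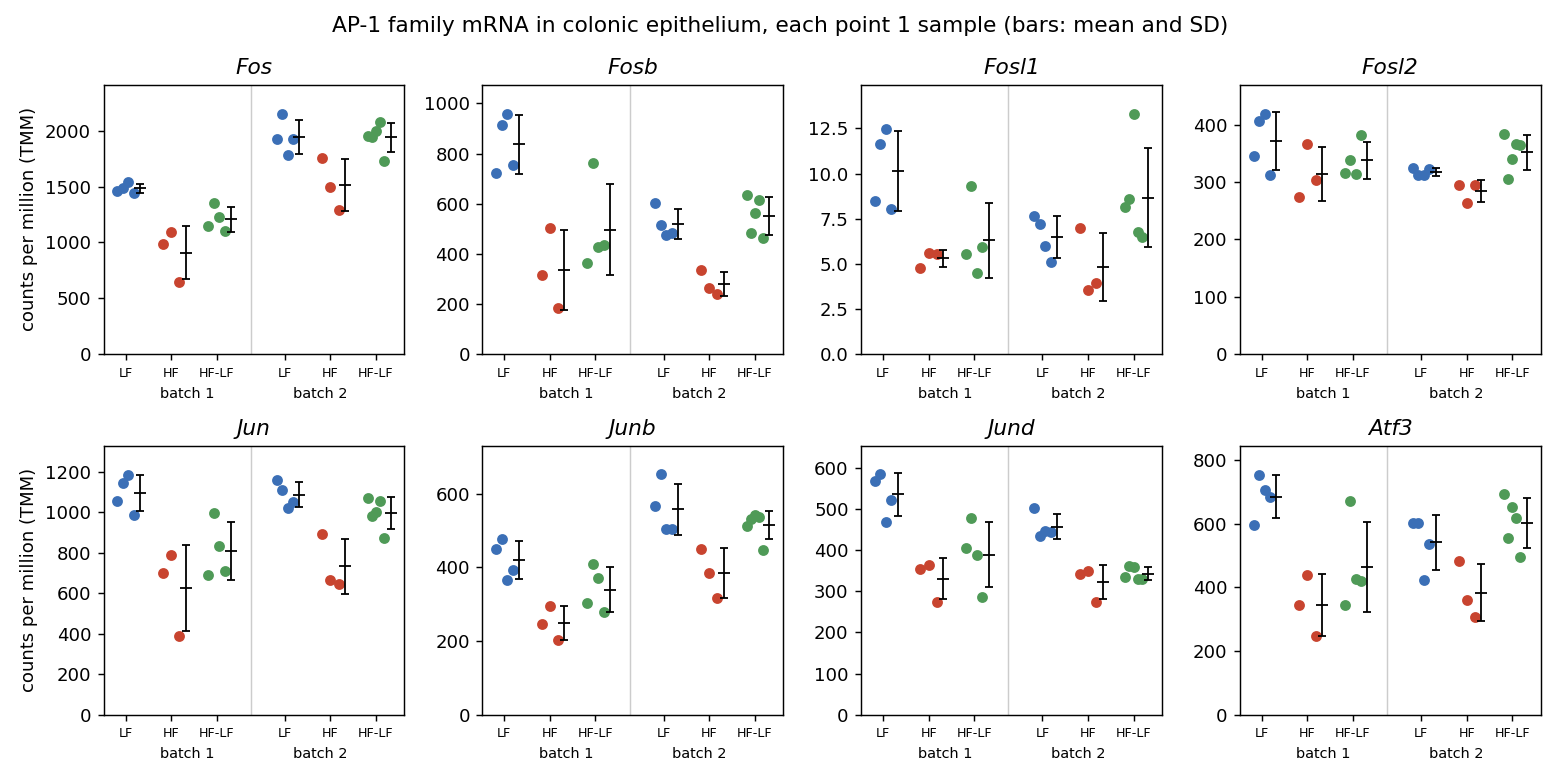
Level (CPM, TMM-scaled) of the 8 tested members in every sample, by diet group and batch; each point is 1 sample and the bars give the mean and SD. Every HF sample lies below every LF sample of its batch for Fos, Fosb, Jun, Junb and Jund, and Jund in the HF-LF samples of batch 2 lies below its LF samples.

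Fos encodes the founding partner of Jun in AP-1. In batch 1 its level was 1466, 1490.3, 1541 and 1442 CPM in the LF samples and 989.7, 1092 and 643 CPM in the HF samples. In batch 2 it was 1923, 2154, 1779.8 and 1924 CPM in LF and 1757, 1498 and 1293 CPM in HF. The groups did not overlap in either batch, although the highest HF sample of batch 2 lay close under the lowest LF sample. The log2 fold change was -0.71 (SE 0.16, adjusted p = 0.13) in batch 1, -0.36 (SE 0.11, adjusted p = 0.0546) in batch 2 and -0.53 (SE 0.10, adjusted p = 0.00296) over both. The call within batch 2 depended on the version of the edgeR test, with an adjusted p of 0.0447 under the legacy quasi-likelihood method.

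Fosb, whose protein resembles Fos and which is strongly induced by stimulation, showed the widest difference. Its level in batch 1 was 721, 916, 959 and 754 CPM in LF and 315, 505 and 184 CPM in HF. In batch 2 it was 604, 514, 473 and 483 CPM in LF and 333, 262 and 240.0 CPM in HF. No HF sample reached any LF sample of its batch. The log2 fold change was -1.32 (SE 0.31, adjusted p = 0.13) in batch 1, -0.90 (SE 0.13, adjusted p = 0.0082) in batch 2 and -1.12 (SE 0.20, adjusted p = 0.00183) over both, the last a fall to 0.459 of the LF level.

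Fosl1 and Fosl2 encode the Fos-related proteins Fra-1 and Fra-2, which lack a strong activation domain. Fosl1 ranged over 8.03 to 12.4 CPM in LF and 4.74 to 5.59 CPM in HF of batch 1, without overlap, and over 5.08 to 7.64 and 3.56 to 7.0 CPM in batch 2, with overlap. Its log2 fold change was -0.94 (SE 0.24, adjusted p = 0.133), -0.42 (SE 0.26, adjusted p = 0.27) and -0.70 (SE 0.22, adjusted p = 0.0226) in batch 1, batch 2 and both. This gene had only 137 to 501 counts per sample.
Fosl2 was the member that differed least between the diets. Its level was 347, 407, 419.7 and 313 CPM in LF and 274, 367 and 304 CPM in HF of batch 1, where the groups overlapped. In batch 2 it was 325, 312, 313 and 323 CPM in LF and 295, 263 and 296 CPM in HF, where they did not. The log2 fold change was -0.24 (SE 0.13, adjusted p = 0.275) in batch 1, -0.16 (SE 0.08, adjusted p = 0.147) in batch 2 and -0.20 (SE 0.08, adjusted p = 0.0585) over both, past the threshold in none of them.

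Jun, which encodes the main partner of Fos, stood at 1059, 1144, 1188 and 988 CPM in LF and 701, 791 and 387 CPM in HF of batch 1. In batch 2 it stood at 1160.3, 1114, 1022 and 1053 CPM in LF and 892, 665 and 645 CPM in HF. The groups did not overlap, and the third HF sample of batch 1 was the lowest of all 23 samples for Jun and for Fos. The log2 fold change was -0.81 (SE 0.21, adjusted p = 0.143), -0.57 (SE 0.11, adjusted p = 0.0224) and -0.69 (SE 0.12, adjusted p = 0.00216) in batch 1, batch 2 and both.
Junb, a weaker activator that can oppose Jun, ranged over 365 to 477 CPM in LF and 203 to 295 CPM in HF of batch 1 and over 505 to 653 and 317 to 451 CPM in batch 2, with no overlap. Its log2 fold change was -0.76 (SE 0.16, adjusted p = 0.13), -0.54 (SE 0.12, adjusted p = 0.0264) and -0.65 (SE 0.10, adjusted p = 0.00101).
Jund stood at 569, 584, 469 and 521 CPM in LF and 354, 364 and 273 CPM in HF of batch 1. In batch 2 it stood at 502, 434, 446 and 445 CPM in LF and 343, 349.8 and 275 CPM in HF. The groups were again apart, and the log2 fold change was -0.70 (SE 0.16, adjusted p = 0.13), -0.50 (SE 0.08, adjusted p = 0.0132) and -0.60 (SE 0.09, adjusted p = 0.000985) in batch 1, batch 2 and both. Jund had the lowest adjusted p of the family over both batches.

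Atf3, a stress-induced gene whose protein can repress or activate with a Jun partner, stood at 596, 754, 706 and 685 CPM in LF and 344, 440.2 and 246 CPM in HF of batch 1. In batch 2 it stood at 602, 604, 422 and 537 CPM in LF and 483, 360.1 and 306 CPM in HF, where 1 HF sample lay above the lowest LF sample. The log2 fold change was -0.998 (SE 0.22, adjusted p = 0.13), -0.50 (SE 0.16, adjusted p = 0.057) and -0.76 (SE 0.16, adjusted p = 0.00511) in batch 1, batch 2 and both.
In batch 1 every HF sample lay below every LF sample for 7 of the 8 members, where 7.33% of genes did so. In batch 2 this held for 6 of the 8, where 13.5% of genes did so. The change between HF and LF did not pass the test for a difference between the batches in any member (0 of 14725 genes called, 0%), the lowest adjusted p of a member being 0.771 for Fos.

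**Figure D2:**
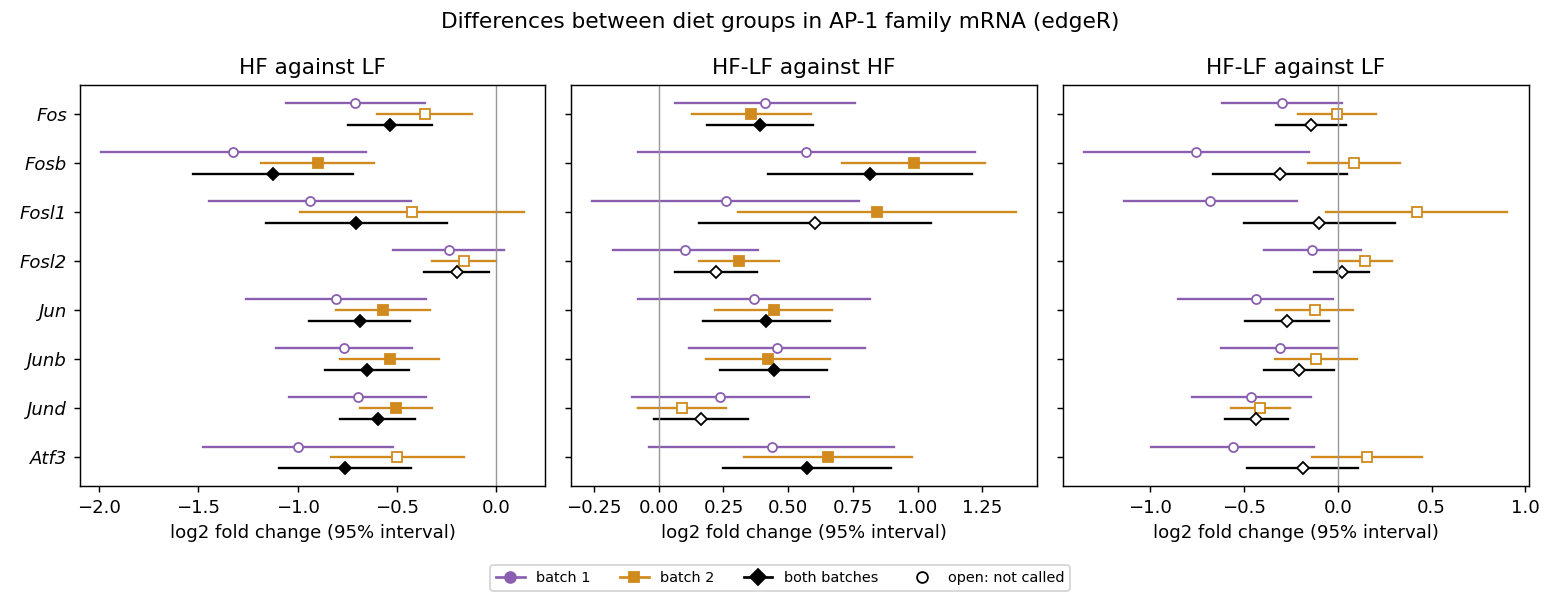
Log2 fold change of each tested member in the 3 comparisons, from edgeR, with 95% intervals; circles are batch 1, squares batch 2 and diamonds both batches, and filled symbols were called. All 8 members lie below 0 for HF against LF in both batches, and Jund lies at 0.24 in batch 1 and 0.09 in batch 2 for HF-LF against HF and below 0 for HF-LF against LF.

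The counts of members called rested on single libraries in batch 2. Without the second HF sample of batch 2, 1 member was called between HF and LF, and without the third HF, the first LF or the third LF sample, 2 were called. Over both batches 6 or 7 were called whichever sample was left out. The share of all genes called in these refits is not given here. A loss of calls in the members therefore cannot be told from a loss over all genes. Markers of other cell types were read beside the counts of members. In batch 2 summed smooth muscle markers (Acta2, Myh11, Des, Actg2 and Cnn1) were 5.33 to 28.4 CPM in LF and 0.702 to 4.20 CPM in HF (two-sided exact permutation p = 0.0571), and all 5 were lower, with Actg2 called. In batch 1 their range was 1.11 to 9.68 CPM in LF and 0.383 to 8.60 CPM in HF (exact permutation p = 0.8). Fibroblast markers were 9.18 to 33.0 CPM in LF and 4.26 to 15.8 CPM in HF of batch 2. Over both batches all 5 smooth muscle, all 5 fibroblast and all 3 tested myeloid markers had values below 0, and Pdgfra (-1.17, adjusted p = 0.0474), a fibroblast marker, and Cd68 (-0.61, adjusted p = 0.0460), a macrophage marker, were called lower in HF mice. The part of these markers in the members' values was not tested.

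HF-LF mice were compared with HF mice to ask what followed the return to the low-fat diet, and this comparison shares its HF samples with the one above. Within batch 2, 7 of the 8 members were higher in HF-LF mice, all but Jund, where 8.96% of genes were called higher. The median log2 fold change was 0.43, beside 0.01 over all genes. Over both batches 5 were called higher (Fos, Fosb, Jun, Junb and Atf3), where 5.72% of genes were. Within batch 1, 0 were called, and 0.00693% of genes were. Jund differed by 0.09 in batch 2 on the log2 scale (adjusted p = 0.427).

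Fosb was 364, 764, 425 and 434 CPM in the HF-LF samples of batch 1 and 633, 483, 562, 614 and 463 CPM in those of batch 2. In batch 2 each of these lay above each HF sample, and in batch 1 the groups overlapped. The log2 fold change of HF-LF against HF was 0.57 (SE 0.30, adjusted p = 0.473) in batch 1, 0.99 (SE 0.13, adjusted p = 0.00278) in batch 2 and 0.81 (SE 0.19, adjusted p = 0.0133) over both.
Atf3 was 345, 669.6, 425 and 419 CPM in batch 1 and 692, 554, 653, 618 and 495 CPM in batch 2, apart from HF in batch 2 and overlapping with it in batch 1, with a log2 fold change of 0.65 (SE 0.15, adjusted p = 0.0172) in batch 2. Fosl2 rose by a smaller amount, 0.31 (SE 0.07, adjusted p = 0.0175), to 385, 306, 341, 367 and 365 CPM in batch 2, all above the HF samples.
Fos was 1150.0, 1353, 1228 and 1099 CPM in batch 1 and 1956, 1947, 2002, 2078 and 1733 CPM in batch 2. In batch 1 all 4 HF-LF samples lay above the HF samples and below the LF samples, and in batch 2 the lowest HF-LF sample lay just under the highest HF sample. Its log2 fold change was 0.41 (SE 0.16, adjusted p = 0.4) in batch 1 and 0.36 (SE 0.11, adjusted p = 0.0344) in batch 2. Jun, at 1073, 983, 1001, 1059 and 874 CPM, and Junb, at 513, 533, 542, 538 and 449 CPM in the HF-LF samples of batch 2, had log2 fold changes of 0.44 (SE 0.11, adjusted p = 0.0189) and 0.42 (SE 0.11, adjusted p = 0.0247).
Fosl1 was 8.13, 8.56, 13.3, 6.78 and 6.5 CPM in batch 2, with the third sample the highest of all 23, and its log2 fold change was 0.84 (SE 0.25, adjusted p = 0.0341).
In batch 1 every HF-LF sample lay above every HF sample for 1 member, Fos, where 3.94% of genes did so. In batch 2 this held for 3 members, Fosb, Fosl2 and Atf3, where 14.6% did so. Without the second HF sample of batch 2, 1 member was called in batch 2, and without the third, 2 were. Over both batches 3 were called without the third HF sample of batch 1, the second HF or the third HF sample of batch 2. The share of all genes called in these reduced fits is not given here, so the drop may not be particular to the members. Summed smooth muscle markers were 2.19 to 42.9 CPM in the HF-LF samples of batch 1 and 1.66 to 14.1 CPM in those of batch 2, beside the HF ranges given above (two-sided exact permutation p = 0.286 and 0.268). All 5 had values above 0 in each batch, and Actg2 was called higher over both (2.16, adjusted p = 0.0449). In batch 2 all 5 T cell markers had values above 0, and Cd3e, a part of the T cell receptor complex, was called higher (0.92, adjusted p = 0.0386). In batch 1 all T cell markers but Cd7 had values below 0, with Cd3e at -0.32 (adjusted p = 0.755). Over both batches Cd3e stood at 0.22 (adjusted p = 0.595). The part of these markers in the members' values was not tested here either.

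HF-LF mice were then compared with LF mice, which asks whether the former high-fat diet, with its obesity, left a difference. No member was called in batch 1, in batch 2 or over both by edgeR, where 0%, 0.00696% and 0% of genes were called lower, with 320 genes lower and 274 higher over both at an unadjusted p under 0.05. DESeq2 called Jund lower in batch 2 and over both, and limma voom called it over both. So did edgeR over both without the second HF-LF or the third HF sample of batch 1, with no filter on low counts, or with only these diets in the fit. Jund was 406, 477, 388 and 286 CPM in the HF-LF samples of batch 1 and 334, 362, 359.6, 330.1 and 330.0 CPM in those of batch 2. In batch 2 all 5 lay below all 4 LF samples, and 3 of them within the range of the HF samples. In batch 1, 3 of 4 lay below the LF range, as for Fosb, Fosl1, Jun and Atf3, and for Fos all 4 did. Its log2 fold change of HF-LF against LF was -0.46 (SE 0.15, adjusted p = 0.792) in batch 1, -0.41 (SE 0.07, adjusted p = 0.186) in batch 2 and -0.43 (SE 0.08, adjusted p = 0.079) over both, and it stood 4th by p among 14377 genes in batch 2 and 2nd among 14385 over both. The interval of Jund over both was -0.60 to -0.27. Jun (-0.27, interval -0.50 to -0.04) and Junb (-0.21, interval -0.39 to -0.02) were also lower over both, with an edgeR adjusted p of 0.98 each. The intervals of the remaining members over both held 0.
The other members had log2 fold changes in batch 2 of -0.0014 for Fos, 0.09 for Fosb, -0.12 for Jun, -0.12 for Junb and 0.15 for Atf3, and of 0.42 (SE 0.23) for Fosl1 and 0.15 (SE 0.07) for Fosl2 (adjusted p = 0.9998 for each of these 7). Of the 5 HF-LF samples, 3 lay above the LF range for Fosl1 and for Atf3, and 4 lay above it for Fosl2, whose p was 0.0410 before adjustment in edgeR. For Fosb 2 lay above it. Below the LF range lay 3 samples for Jun and 1 each for Fos, Fosb, Junb and Fosl2. In batch 1 all 8 had values below 0, from -0.75 for Fosb to -0.14 for Fosl2 (adjusted p 0.792 to 0.808). In batch 1 every HF-LF sample lay below every LF sample for Fos only, where 1.56% of genes did so, and in batch 2 for Jund only, where 0.696% did so.
Markers of other cell types were read in the same comparison, with p-values from two-sided exact permutation tests and not adjusted. In batch 2 summed T cell markers were 15.9 to 19.1 CPM in HF-LF and 12.5 to 16.5 CPM in LF mice (exact permutation p = 0.0397), and B cell markers 0.217 to 0.605 and 0.0980 to 0.275 CPM (exact permutation p = 0.0397). All 5 smooth muscle markers had values below 0 there, from -1.76 to -1.02, with sums of 1.66 to 14.1 CPM in HF-LF and 5.33 to 28.4 CPM in LF mice (exact permutation p = 0.190). In batch 1 all 5 had values above 0, from 1.71 to 2.56, with sums of 2.19 to 42.9 and 1.11 to 9.68 CPM (exact permutation p = 0.171), while T cell markers were 12.2 to 20.6 CPM in HF-LF and 19.2 to 28.7 CPM in LF mice (exact permutation p = 0.0571). The T cell and the smooth muscle values each had opposite signs in the batches. None of these markers was called by edgeR, and their part in the values of Jund was not tested.

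Since the members moved by different amounts, each was set against the mean of the other 7 in the same sample on the log2 CPM scale, a measure chosen after the values were seen. Labels were exchanged within batches in a two-sided exact permutation test, with p adjusted over 24 tests. Relative to the rest, Fosb differed between HF and LF mice by -0.57 (log2, adjusted permutation p = 0.0098), with -0.68 in batch 1 and -0.46 in batch 2. Fosl2 relative to the rest differed by 0.54, higher in HF mice (adjusted permutation p = 0.0098), with 0.68 in batch 1 and 0.39 in batch 2. For both genes the HF and LF samples did not overlap in either batch. The other members shifted by -0.11 to 0.13, and none of those tests passed.
Jund relative to the rest was 0.18 to 0.60 in the HF samples and 0.20 to 0.48 in the LF samples of batch 2, against -0.24 to 0.03 in the HF-LF samples, without overlap. The difference from LF was -0.49 in batch 2 (exact permutation p = 0.0079, the smallest this design gives) but -0.01 in batch 1 (exact permutation p = 0.971), and over both -0.25 (adjusted p = 0.143). The difference between the batches in this measure was not tested.

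**Figure D3:**
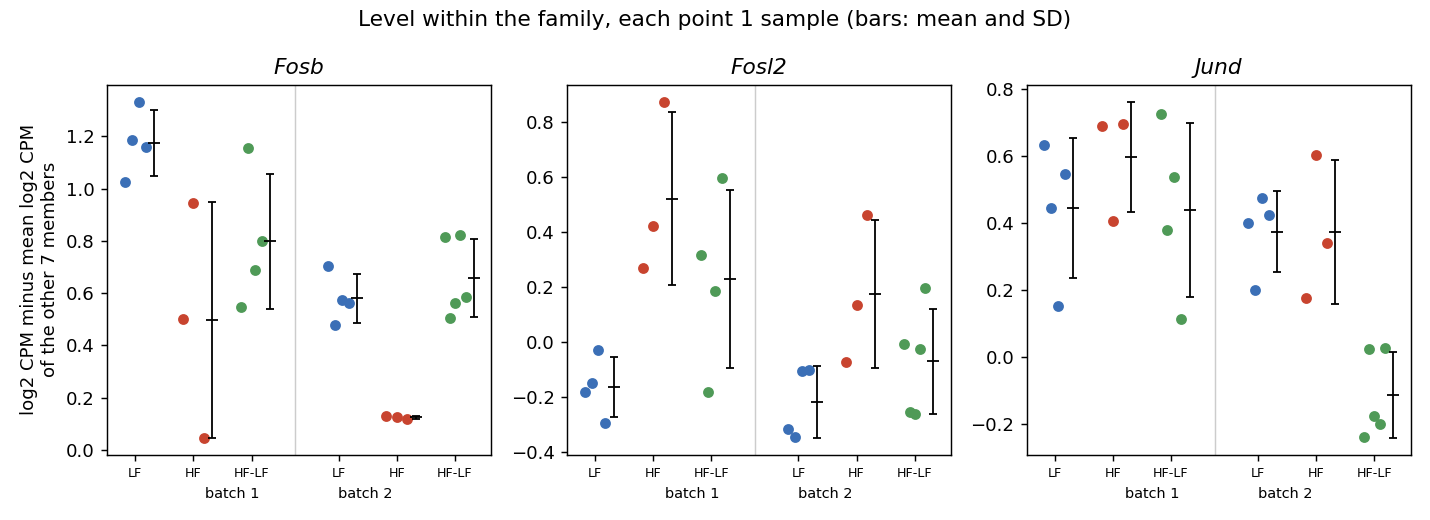
Log2 CPM of Fosb, Fosl2 and Jund minus the mean of the other 7 members in the same sample, by diet group and batch; each point is 1 sample and the bars give the mean and SD. Fosb falls and Fosl2 rises relative to the rest in HF samples of both batches, and Jund in the HF-LF samples lies below the LF samples in batch 2 and overlaps them in batch 1.

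The members were then set against Fos between samples of one group. On log2 CPM minus the mean of the diet group in its batch (n = 23), Jun followed Fos with r = 0.94 and rho = 0.90 (adjusted permutation p = 0.000140 and 0.000175 over 7 relations). Fosb (r = 0.82, rho = 0.79), Atf3 (r = 0.82, rho = 0.83) and Junb (r = 0.80, rho = 0.77) also passed, with adjusted permutation p of 0.000840, 0.000140 and 0.000140 for r and 0.000630, 0.000175 and 0.00145 for rho. Jund passed on r (0.61, adjusted permutation p = 0.0169) and not on rho (0.49, adjusted permutation p = 0.0862). Fosl1 (r = 0.34, rho = 0.41, adjusted permutation p = 0.0976 and 0.0862) and Fosl2 (r = 0.12, rho = 0.13, adjusted permutation p = 0.770 and 0.633) did not pass.
Leaving out the third and second HF samples of batch 1, the farthest from the median of Fos, gave r = 0.86 for Jun, 0.66 for Fosb, 0.78 for Atf3, 0.79 for Junb, 0.51 for Jund, 0.52 for Fosl1 and -0.12 for Fosl2. Within batch 1 (11 samples) r was 0.98 for Jun, 0.88 for Fosb, 0.79 for Atf3, 0.73 for Junb, 0.67 for Jund, 0.18 for Fosl1 and 0.19 for Fosl2. Within batch 2 (12 samples) it was 0.84 for Jun, 0.71 for Fosb, 0.87 for Atf3, 0.95 for Junb, 0.47 for Jund, 0.57 for Fosl1 and -0.053 for Fosl2.
The 5 genes outside the family whose deviations were most like those of Fos, of 14172 ranked, were Ier2 (r = 0.95), Btg2 (0.88), Dusp1 (0.88), Rhob (0.86) and Tmem132c (0.86), as a description over the 23 samples. With 2 samples left out, r was 0.90 for Ier2, 0.78 for Btg2, 0.78 for Dusp1, 0.65 for Rhob and 0.74 for Tmem132c. Within batch 1 it was 0.95, 0.86, 0.90, 0.96 and 0.97 in this order, and within batch 2 0.95, 0.92, 0.84, 0.61 and 0.64. Among all genes Jun ranked 2nd, Fosb 25th, Atf3 28th and Junb 36th by r with Fos over all 23 samples, and Fosl2 5566th.

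**Figure D4:**
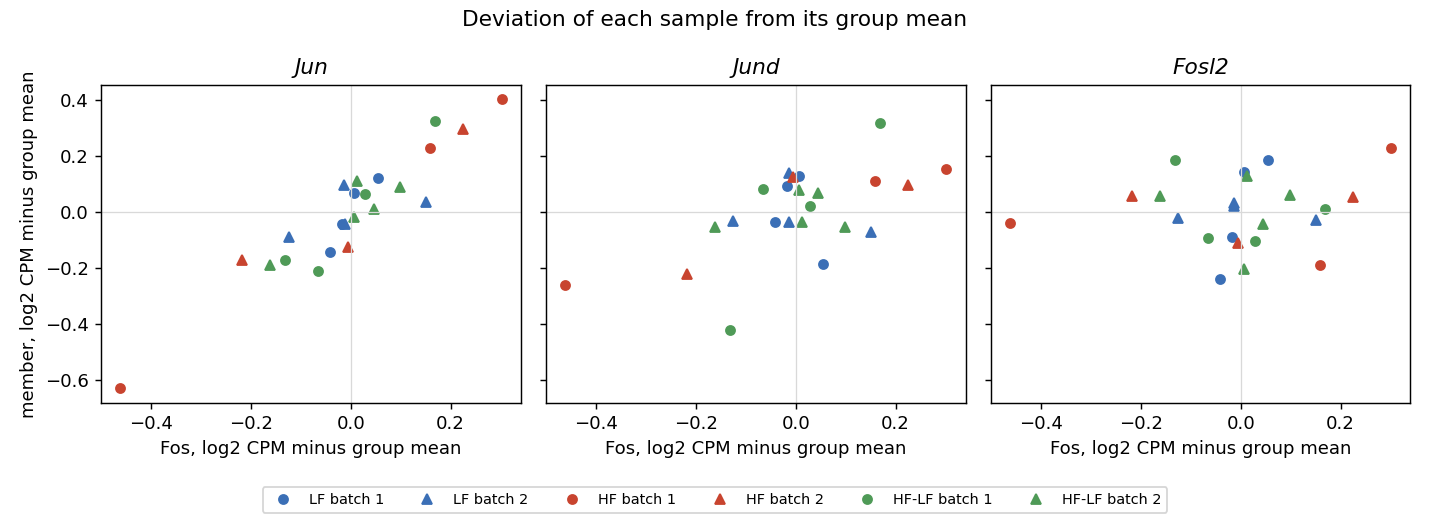
Deviation of each sample from the mean of its diet group and batch on the log2 CPM scale, Fos on the horizontal axis and Jun, Jund or Fosl2 on the vertical axis; colours are diets, circles batch 1 and triangles batch 2. Jun lies along a line with Fos (r = 0.94), Jund less so (r = 0.61) and Fosl2 does not (r = 0.12).

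Other genes of the pathway were read for comparison with the members, between HF and LF in batch 2, where 4.58% of genes were called lower and 3.12% higher. Of 13 tested kinases that act upstream of AP-1, none was called there, and their median log2 fold change was -0.01. Over both batches Map2k7, a kinase that activates JNK, fell by 0.27 on the log2 scale (adjusted p = 0.00877). Of 12 upstream transcription factors 1 fell, Srf, the serum response factor, with a log2 fold change of -0.47 (SE 0.10, adjusted p = 0.0234) and a list median of -0.21. Of 10 other bZIP partners 2 fell, Atf7 (-0.45, adjusted p = 0.0383) and Mafg (-0.35, adjusted p = 0.0450), with a list median of -0.05.
Of 9 genes that act on the turnover of Fos and Jun mRNA or protein 4 fell, among them Zfp36l1 (-0.64, adjusted p = 0.00965), Zfp36l2 (-0.44, adjusted p = 0.0234) and Khsrp (-0.28, adjusted p = 0.0370), which bind AU-rich elements in mRNA. Of 14 other immediate early genes 8 fell, with a list median of -0.55 beside -0.50 for the members. They included Klf2 (-1.38, adjusted p = 0.000767), Ier2 (-0.57, adjusted p = 0.0176) and Egr1 (-0.60, adjusted p = 0.0287).
Of 22 listed genes known as targets of AP-1, 12 were tested, with a median of -0.12, and 1 was called, Mt2, a metallothionein, higher in HF mice by 1.58 on the log2 scale (adjusted p = 0.0340). Mt2 was not called over both batches (0.76, adjusted p = 0.185) and had a value of -0.29 in batch 1. Over both batches 2 targets fell, named after their values were seen, the growth factors Hbegf (-0.60, adjusted p = 0.00591) and Vegfa (-0.38, adjusted p = 0.0384), and the list median was 0.06. The summed targets of batch 1 were 647 to 737 CPM in LF and 440 to 573 CPM in HF mice (two-sided exact permutation p = 0.0286, the smallest this design gives), and those of batch 2 were 542 to 648 and 499 to 634 CPM (exact permutation p = 0.457).
Over both batches, where 9.42% of genes were called lower, 11 of the 14 other immediate early genes fell, as did 3 of the 12 upstream transcription factors, 3 of the 10 bZIP partners, 3 of the 9 turnover genes and 3 of the 9 heat shock genes, 1 other heat shock gene being higher. In batch 2, of 9 heat shock genes Hspa1a (-3.16, adjusted p = 0.0309) and Hspa1b (-2.44, adjusted p = 0.0340) fell, from 19.1 to 131 CPM in LF to 4.86 to 9.98 CPM in HF for Hspa1a. These genes are near copies of each other, so their reads may have been split between them. Their part in the members' values was not tested.
Between HF-LF and HF in batch 2, 9 of the 14 other immediate early genes were called higher, as were 5 of the 12 upstream transcription factors, 3 of the 10 bZIP partners, 2 of the 9 turnover genes and none of the 13 kinases or the 9 heat shock genes. Of the AP-1 targets 1 of 12 was called higher and 2 lower. Over all genes tested in this comparison, 8.96% were called higher and 5.68% lower.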

How the data were processed

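The authors deposited counts of reads per gene locus (mm10) without normalization. Per the submitters' processing notes they used cutadapt 1.2.1, STAR 2.5 and featureCounts 1.5.0-p1. Their gene annotation, use of strand and handling of reads with several hits are not given in the sources used here. Columns were matched to samples by title, and diets were compared within each batch and over both.

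Counts were fitted with edgeR 4.0.16 (R 4.3.3; TMM, filterByExpr, quasi-likelihood F test), which kept 14428 genes in batch 1, 14377 in batch 2 and 14385 over both, and p-values were Benjamini-Hochberg adjusted over all of these. CPM plots use TMM factors, and log2 CPM a prior count of 2. Alternatives used DESeq2 1.42.0 and limma 3.58.1. The fits were tested on simulated data. Two-sided exact permutation p-values are the share of arrangements with an absolute difference at least as large, and 3 samples against 4 cannot go below 0.0286. Relations with Fos used 100000 draws within groups. At these depths 3 counts equal 0.0459 to 0.103 CPM, a floor that covers counting error only. All members are named, with up to 3 called genes of lowest p per other list, between HF and LF in batch 2 or over both where none passed, and the 5 genes most like Fos. Hspa1a is given with its CPM, and the markers of each cell type were read as sums. The members and lists were chosen with earlier results of these data known, and the level within the family after the values were seen.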

Additional observations from a re-analysis of the deposited data

Results flagged for a closer look

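The first LF sample of batch 2 stood apart for Jund, at 502 CPM beside 434 to 446 CPM in the other 3, a gap of 0.829 of the range of the group. This was 1 of 32 groups of 4 or 5 samples examined, and chance sets apart about 1 in 20 groups.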

How the results depend on the processing

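Directions of the 8 tested members were kept in HF against LF under all alternatives in both batches. In batch 1, where edgeR called 0 members in HF against LF, DESeq2 called 7 and limma voom 8 (512 and 2422 of all genes beside 0), and leaving out 1 sample gave 0 to 7 (7 without the second HF sample). In batch 2 leaving out 1 sample gave 1 to 6 members in HF against LF and 1 to 7 in HF-LF against HF, and over both batches 3 to 7 in HF-LF against HF. Totals over all genes without 1 sample are not given here, so these ranges stand without a share. HF-LF against LF gave 1 member, Jund, with DESeq2 in batch 2, and over both with DESeq2, limma voom, no filter on low counts and only the 2 diets in the fit, and 0 to 1 when leaving out samples. Whether the replicate numbers pair the samples was not settled. Same-numbered samples of different diets correlated at -0.39 to 0.41 in batch 1 (median 0.073, beside -0.024 for samples numbered differently). In batch 2 they correlated at -0.14 to 0.41 (median 0.078, beside -0.040). With the numbers as a block, 4 members were called between HF and LF in batch 1 (100 of all genes). In batch 2, 6 were called (2133 of all genes beside 1107). DESeq2 and limma voom called 1845 and 1991 genes in that comparison. Without a fold threshold 4156 genes beside 2653 were called over both for HF against LF, and 2456 beside 1548 for HF-LF against HF. In HF-LF against HF of batch 1, DESeq2 called 17 genes beside 1. In HF-LF against LF, DESeq2 called 6, 16 and 6 genes in batch 1, batch 2 and both, beside 0, 1 and 0.

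Values near 0 changed sign in a few cases. Fos in HF-LF against LF of batch 2 became 0.041 with the replicate block and ran from -0.042 to 0.051 when samples were left out in turn. Jund in HF-LF against HF of batch 2 ran from -0.014 (without the third HF sample) to 0.138, Fosl2 in HF-LF against LF over both from -0.00933 to 0.053, and the difference between batches from -0.189 to 0.021 for Fosl2 and from -0.430 to 0.027 for Jun. The relation of Fosl2 with Fos was -0.053 in batch 2 alone, where Fosb (0.71) and Jund (0.47) no longer passed. Relative to the rest of the family, Fosb and Jund in HF-LF against HF passed without the first HF-LF or the second HF sample of batch 1. The cause of these changes was not tested. The low counts of Fosl1 and Batf limit what can be said of them.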
